A study of Mus musculus with 12 samples.

Results

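Long transposable element (TE) copies that lie inside introns and point the same way as their host gene were followed in newborn male germ cells with and without Morc1. A TE is a stretch of DNA that has been copied into many places of the genome. The members were all copies listed in the TE table that are longer than 5000 bp, overlap a gene of the GENCODE M21 annotation (GRCm38) but none of its exons on either strand, and have the strand of every gene they overlap. The rule found 1131 such copies among 298593 listed, in 838 host genes. They are called host-strand copies here. Of these copies, 1114 lie within a single gene and 17 within several. The host was protein-coding for 831 copies and a lincRNA, a long noncoding RNA gene, for 173.

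The libraries were RNA-seq libraries of gonocytes, the germ cells of the testis before spermatogenesis starts, sorted from male mice with the Mvh-Venus reporter, a fluorescent marker of germ cells that every group carries. At postnatal day 0 (P0) there were 3 libraries of Morc1 (+/-) cells, called het, and 3 of Morc1 (-/-) cells, called KO. The controls thus carry 1 mutant allele, and no wild-type animals entered the comparison. A further 6 libraries from postnatal day 3 are listed among the 12 samples and were not analysed here. The labels do not say whether replicates came from separate animals, so the p-values measure the spread between these libraries, which may be technical.

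MORC1 belongs to the Microrchidia family of ATPases and is known to be needed for TE silencing in the male germ line, after the DNA methylation of fetal germ cells has been erased. Copies that keep most of their length, such as near-complete LINE-1 elements and endogenous retroviruses, can still carry their own promoter. Length alone does not show which copies carry one. A copy within an intron also lies in the stretch that the host gene transcribes into its unspliced RNA, so its reads can come from a transcript of its own or from that of the host, and a count of reads does not separate the sources. The host gene's level and the short copies in introns of the same host genes were therefore measured beside the long copies.

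The TE table gives positions and no base letters, so sequence was read from the RefSeq gene-start windows (GRCm38.p6, 250 bases before to 50 bases after an annotated start). Such a window overlapped 5 of the 1131 members. The 3 shown here reach the inside and each end of a member, and the fourth lies in the copy at the start of a host gene that rose. Each is written 5′ to 3′ on the strand of the RefSeq gene, and the capitals mark the bases inside the copy.
Gm40691 window (chr10:74137168-74137467, minus strand, inside the plus-strand Pcdh15 copy): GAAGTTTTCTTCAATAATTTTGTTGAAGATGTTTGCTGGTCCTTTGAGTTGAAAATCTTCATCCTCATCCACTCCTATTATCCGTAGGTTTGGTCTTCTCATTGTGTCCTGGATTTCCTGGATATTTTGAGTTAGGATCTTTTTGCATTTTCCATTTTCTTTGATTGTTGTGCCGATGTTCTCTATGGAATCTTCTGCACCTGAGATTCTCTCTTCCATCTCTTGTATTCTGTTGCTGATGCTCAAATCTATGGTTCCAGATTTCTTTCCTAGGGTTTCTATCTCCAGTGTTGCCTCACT
LOC108167564 window (chr8:128753485-128753784, minus strand, start of the minus-strand Ccdc7a copy): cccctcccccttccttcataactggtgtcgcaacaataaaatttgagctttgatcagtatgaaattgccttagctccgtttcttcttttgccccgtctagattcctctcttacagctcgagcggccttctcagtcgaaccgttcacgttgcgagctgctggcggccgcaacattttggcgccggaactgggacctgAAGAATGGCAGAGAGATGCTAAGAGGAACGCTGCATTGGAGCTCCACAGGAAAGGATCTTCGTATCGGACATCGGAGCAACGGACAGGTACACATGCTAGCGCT
LOC115487814 window (chr11:108708232-108708531, plus strand, end of the plus-strand Cep112 copy): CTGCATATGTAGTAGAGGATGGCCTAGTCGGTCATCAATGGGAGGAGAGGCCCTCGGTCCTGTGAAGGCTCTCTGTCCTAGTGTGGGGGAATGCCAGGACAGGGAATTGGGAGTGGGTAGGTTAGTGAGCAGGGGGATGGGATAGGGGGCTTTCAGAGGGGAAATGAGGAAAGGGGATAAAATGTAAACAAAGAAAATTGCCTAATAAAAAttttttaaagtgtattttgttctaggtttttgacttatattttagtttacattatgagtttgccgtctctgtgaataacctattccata
A230004M16Rik window (chr11:41710094-41710393, plus strand, inside a minus-strand copy over the start of this host gene): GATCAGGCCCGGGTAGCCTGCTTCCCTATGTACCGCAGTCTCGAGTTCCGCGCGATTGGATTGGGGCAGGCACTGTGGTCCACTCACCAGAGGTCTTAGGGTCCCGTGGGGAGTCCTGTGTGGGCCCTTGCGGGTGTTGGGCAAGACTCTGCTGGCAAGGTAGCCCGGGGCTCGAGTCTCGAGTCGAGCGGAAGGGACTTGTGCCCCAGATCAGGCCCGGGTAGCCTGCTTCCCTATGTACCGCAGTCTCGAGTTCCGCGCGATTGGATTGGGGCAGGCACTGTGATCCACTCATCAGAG

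The windows are unlike each other in base makeup. The Gm40691 window lies whole within its copy, runs against the strand of the copy and holds 2 CG dinucleotides, against a median of 7 over 32817 windows of this length. The window of LOC108167564, which covers the first 104 bases of the Ccdc7a copy and the bases just before it, holds 19. Most of them lie in the bases before the copy. A count of 19 or more was found in 28.0% of all windows. In the LOC115487814 window the last 211 bases of the Cep112 copy hold the letters AATAAA, the usual core of a polyadenylation signal, at position 204 of the window. The same letters are in the LOC108167564 window outside the copy. On either strand they were in 3 of the 5 member windows, and they were found on either strand in 19.6% of all the windows. TATAAA, the core of the TATA box, was searched in the same way and was in 2 of the 5 member windows, those of Gm39766 and Tbc1d23, which are not printed, against 13.6% of all windows. The A230004M16Rik window is a tandem repeat: shifted by 208 bases, 90 of the 92 bases compared were the same. Its GC content was 62.7%, against a median of 52.7% over all windows, and it held 19 CG dinucleotides.

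Morc1 was listed at 7248, 7485 and 4126 normalized counts (reads divided by a size factor of the library) in het1 to het3 and at 1360, 1343 and 1794 in KO1 to KO3. The groups did not overlap, and the difference was -2.03 on the log2 scale (SE 0.27, limma adjusted p = 0.0109). Gene reads per library ran from 28363683 to 32816861 and reads on TE copies from 1974504 to 3703419. All 10 germ cell markers were detected, and none of them passed the test. Their summed level was 135610 to 208310 in het, with the lowest value in het3, and 148193 to 208942 in KO. The summed level of 5 Leydig cell markers (hormone-producing cells of the testis) was 776 to 24921 in het, with the highest value in het3, and 510 to 1075 in KO. For 7 Sertoli cell markers (the somatic cells that support germ cells) the sum was 17536 to 37259 in het, again highest in het3, and 12581 to 18099 in KO. No gene of these lists passed the limma test, and 3 Sertoli genes had an unadjusted p under 0.05. Of 16 genes of TE silencing, Morc1 fell and 0 rose, and 4 had an unadjusted p under 0.05.

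Of the host-strand copies, 372 rose in KO cells and 0 fell by limma. The test was limma on log2(normalized count + 1) over all copies with a mean of at least 10, with Benjamini-Hochberg adjustment over all copies tested and a threshold of 0.05. Of the 1131 members, 862 (76.2%) passed the filter on low values. A copy that is near silent in het passes it only where its KO level is high, so the counts below describe the copies that passed and not all members. In KO, 372 of the 862 (43.2%) were higher, against 15.6% of all copies tested, and 0 were lower, against 0.735%. By an unadjusted p under 0.05, 13 members were lower. With the other tools, edgeR called 308 higher and 0 lower, against 14.2% and 0.548% of all copies, and DESeq2 called 343 higher and 4 lower, against 15.7% and 1.64%. The count fell to 188 without KO1 and to 214 without KO2. Fewer cells of a type and less RNA per cell cannot be told apart in such bulk libraries.

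The members differed widely among themselves. The median log2 fold change was 1.83 over the 862 tested, against 0.03 over all copies tested. It was above 0 for 697 and below 0 for 165. Every KO library lay above every het library for 491 members (57.0%, against 22.8% of all copies tested), and every KO library lay below for 11 (1.28%, against 7.58%). The 372 called copies had fold changes from 1.21 to 5.31 on the log2 scale, with a median of 2.76. Their het mean had quartiles of 7.98, 12.2 and 20.2 normalized counts and their KO mean quartiles of 51.8, 77.7 and 121. The 490 tested copies that were not called had a median of 21.3 in het and 31.8 in KO. The 269 members under the filter had a median of 3.21 in het and 5.31 in KO, and the highest mean among them was 9.99.

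The libraries of a group were not alike. The median level of the tested members was 12.7, 11.2 and 24.0 normalized counts in het1 to het3, and 46.7, 57.3 and 42.8 in KO1 to KO3. Het3 was the highest het library for 72.4% of the tested members. The same library was highest for 59.3% of the tested long antisense copies, 55.0% of the tested short host-strand copies of the same hosts and 42.7% of all copies tested. Among the called members, KO2 was the highest KO library for 200, KO1 for 119 and KO3 for 53. Without het3, 459 members were called higher, of which 366 were among the 372. Het3 had the highest Leydig and Sertoli marker sums and the lowest germ cell marker sum. The part of the cell makeup in the het3 levels was not tested.

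Reads on all members together, counted per 100 gene reads, were 0.0555, 0.0476 and 0.144 in het1 to het3 and 0.199, 0.345 and 0.183 in KO1 to KO3. The lowest KO library was above the highest het library. The mean was 0.0825 ± 0.0538 in het and 0.242 ± 0.0893 in KO (SD, n = 3 each), which is 2.94-fold higher in KO. With 3 libraries against 3, an exact permutation test (two-sided) cannot go under its value here, p = 0.1. No single copy carried the sum, since the member with the most reads held 1.22% of the 296282 member reads and the top 10 held 7.20%.

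**Figure D1:**
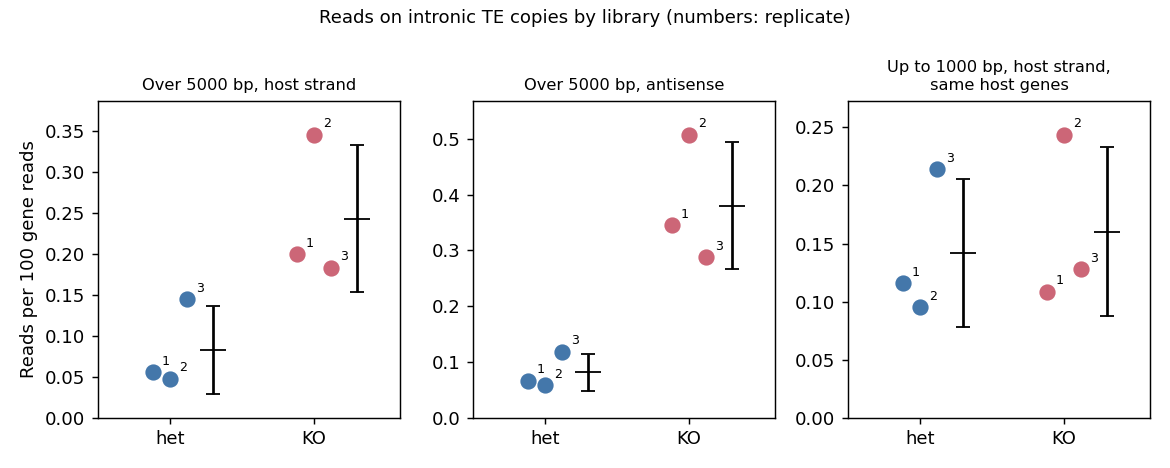
Reads on intronic TE copies per 100 gene reads in each library: host-strand copies over 5000 bp, copies over 5000 bp antisense to the host, and host-strand copies of up to 1000 bp in the same host genes. Points are libraries, numbered by replicate, and bars are the mean ± SD of 3 libraries. For host-strand copies the KO libraries sit between 0.183 and 0.345, above all het libraries, whereas for the short copies the groups overlap.

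The 8 copies with the largest rise had het means from 0.958 to 11.2 normalized counts, beside a median of 12.2 for all called members. Picking by fold change favours a low het level. The first lies within Gm20750, a lincRNA gene, at chr3:52910879-52918473 on the minus strand. It had 4.22, 5.61 and 21.1 normalized counts in het and 376, 526 and 240 in KO, a log2 fold change of 5.31 (SE 0.57, limma adjusted p = 0.000398). The nearest annotated exon, of any gene, lies 140 bases away. The host gene rose too, from 39.1, 17.4 and 1.95 in het to 349, 469 and 214 in KO. The copy within Gm49367 (chr9:36652594-36660005, minus strand) had 2.11, 0 and 4.79 in het and 80.1, 112 and 87.2 in KO. Its log2 fold change was 5.15 (SE 0.72, limma adjusted p = 0.000910).

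Among the 8 largest rises, 4 lay in protein-coding hosts that were themselves at a mean of at least 10 normalized counts and did not pass the test. Within Cpq, which encodes a secreted carboxypeptidase, the copy at chr15:33560227-33565441 (plus strand) had 0, 0 and 2.88 normalized counts in het and 48.6, 43.3 and 41.9 in KO. No het library had more than 3 reads on it, and against that floor of 3 reads per library the KO mean was at least 14.2-fold higher. The copy within Itgbl1, a gene for an integrin beta-like protein (chr14:123821098-123826390, plus strand), had 8.44, 2.24 and 1.92 in het and 163, 94.4 and 102 in KO. Egflam encodes pikachurin, a matrix protein of the photoreceptor synapse. Its copy (chr15:7360463-7367262, minus strand) had 7.38, 2.24 and 18.2 in het and 176, 273 and 149 in KO. Within Cntnap2, a neuronal adhesion gene, the copy (chr6:46577145-46582604, plus strand) had 2.11, 2.24 and 3.83 in het and 80.1, 110 and 56.5 in KO. In each of the 4 the lowest KO library lay well above the highest het library. The log2 fold changes of the copies were 4.86, 4.71, 4.59 and 4.46, with limma adjusted p-values of 0.00296, 0.000609, 0.000779 and 0.000674. Their host genes had log2 fold changes of 0.66 (Cpq), 0.98 (Itgbl1), -0.29 (Egflam) and 0.23 (Cntnap2), with limma adjusted p-values of 0.845, 0.818, 0.929 and 0.947.

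The other two of the 8 lay in hosts below the filter. The copy within Anxa10, an annexin gene (chr8:62102307-62108669, minus strand), had 10.5, 2.24 and 10.5 normalized counts in het and 256, 187 and 159 in KO. Anxa10 itself had no more than 22.5 normalized counts in any library. The copy within Gm27166 (chr9:33040610-33047420, plus strand) had 19.0, 2.24 and 12.5 in het and 295, 371 and 123 in KO, whereas the host had no more than 4.13. The copies' log2 fold changes were 4.71 and 4.64, with limma adjusted p-values of 0.000502 and 0.00105.

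The 5 members with the highest mean did not share 1 pattern. Within Nav3, a neuron navigator gene, the copy at chr10:110008986-110016653 (minus strand) had 67.5, 12.3 and 171 normalized counts in het and 1037, 1270 and 553 in KO. Pcdh9 encodes a protocadherin, and its copy (chr14:93209033-93216456, minus strand) had 33.7, 90.9 and 174 in het and 870, 629 and 576 in KO. Sntb1 is the gene of a syntrophin of the dystrophin complex, and its copy (chr15:55677604-55684898, minus strand) had 53.8, 34.8 and 87.2 in het and 516, 646 and 440 in KO. These 3 rose, by 4.06, 3.05 and 3.24 on the log2 scale (limma adjusted p = 0.00339, 0.00241 and 0.000558). Their hosts did not pass the test, with log2 fold changes of 0.46, 0.16 and -0.59.

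The other two of the 5 were not called. Cenpp encodes a centromere protein, and its copy (chr13:49594184-49600128, minus strand) had 340, 310 and 733 normalized counts in het and 229, 484 and 338 in KO. The groups overlapped, and the log2 fold change was -0.35 (limma adjusted p = 0.711). Per length this copy was at 68.2 normalized counts per kb over the 6 libraries, beside 67.6 for the Nav3 copy. The copy within the noncoding gene Gm34933 (chr6:107249037-107255178, minus strand) had 93.9, 166 and 242 in het and 270, 761 and 249 in KO. Here every KO library was above every het library, by a narrow margin for KO3, and the test gave an adjusted p of 0.129 (limma) at a log2 fold change of 1.25.

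**Figure D2:**
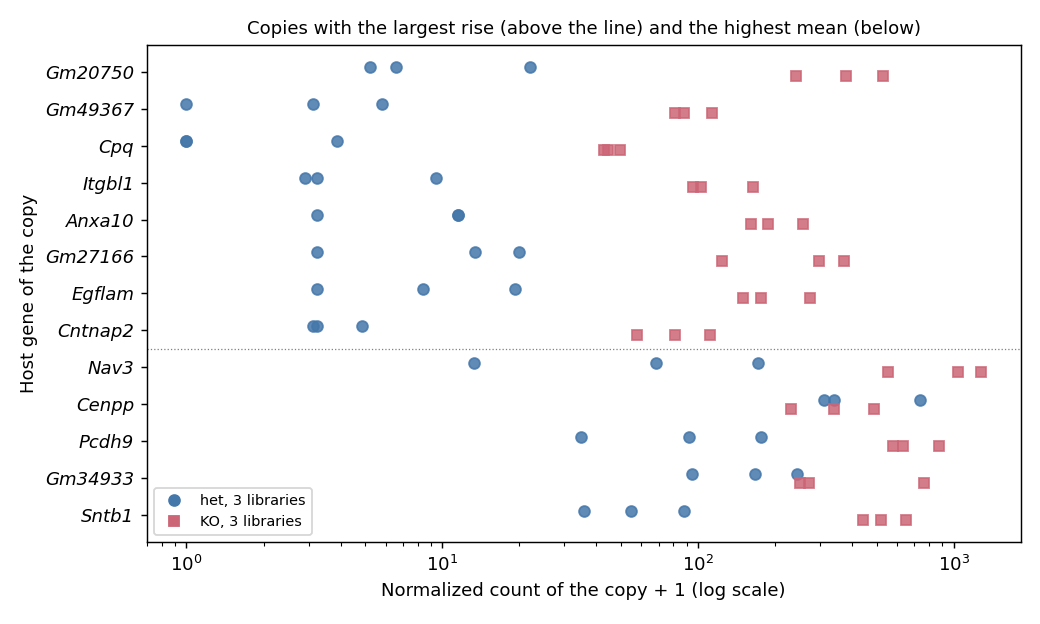
Normalized count + 1 in each of 6 libraries (log axis) for the 8 host-strand copies with the largest rise, above the dotted line, and the 5 with the highest mean, below it, named by host gene. Circles are het and squares are KO. The copies above the line have all KO libraries to the right of all het libraries, and the Cenpp copy has overlapping groups.

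Of the printed sequences, the Gm40691 window lies in a member that rose. The Pcdh15 copy (chr10:74136228-74141482) had 2.11, 7.85 and 10.5 normalized counts in het and 63.9, 50.3 and 101 in KO, a log2 fold change of 3.35 (limma adjusted p = 0.00378). Pcdh15 encodes a protocadherin of hair cells and photoreceptors. The Ccdc7a copy (chr8:128747230-128753588) had 149, 135 and 42.2 in het and 230, 149 and 159 in KO, and the Cep112 copy (chr11:108702095-108708442) had 71.7, 65.1 and 158 in het and 20.98, 129 and 102 in KO. In both, the groups overlapped, with log2 fold changes of 0.89 and -0.46 and limma adjusted p-values of 0.307 and 0.746.

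The members were described by their length. The shortest member had 5004 bp, the quartiles were 5335, 5890 and 6337 bp, and the longest had 9141 bp. Lengths fell into 2 heaps, with 229 members between 5250 and 5500 bp, 79 between 5750 and 6000 bp and 190 between 6000 and 6250 bp. The called share was 33.6% (99 of 295 tested) at 5000 to 5500 bp, 52.3% (78 of 149) up to 6000 bp, 34.4% (97 of 282) up to 6500 bp, 68.3% (69 of 101) up to 7000 bp and 82.9% (29 of 35) above. The 35 longest had a median log2 fold change of 2.99 and a median KO level of 170 normalized counts. The called share therefore did not follow length in order, and the differences between the length classes were not tested. Host-strand copies of 4000 to 5000 bp were called in 12 of 125 (9.60%), with a median log2 fold change of -0.20.

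Of the copies next to the limit, 4 were tested and none was called, and those within 1700121L16Rik and Gpc6 were under the filter. The 3 shortest members lie within Ror1 (5004 bp), Oca2 (5004 bp) and 1700121L16Rik (5006 bp). The 3 host-strand copies just under the limit lie within Gpc6 (4999 bp), Bicd1 (4999 bp) and 1810024B03Rik (4998 bp). In all 6 the het and KO libraries overlapped. The mean levels in het and KO were 26.9 and 18.7 normalized counts for the Ror1 copy, 21.5 and 7.49 for the Oca2 copy and 2.70 and 5.86 for the 1700121L16Rik copy. They were 3.48 and 5.18 for the Gpc6 copy, 20.5 and 16.3 for the Bicd1 copy and 82.9 and 48.5 for the 1810024B03Rik copy.

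**Figure D3:**
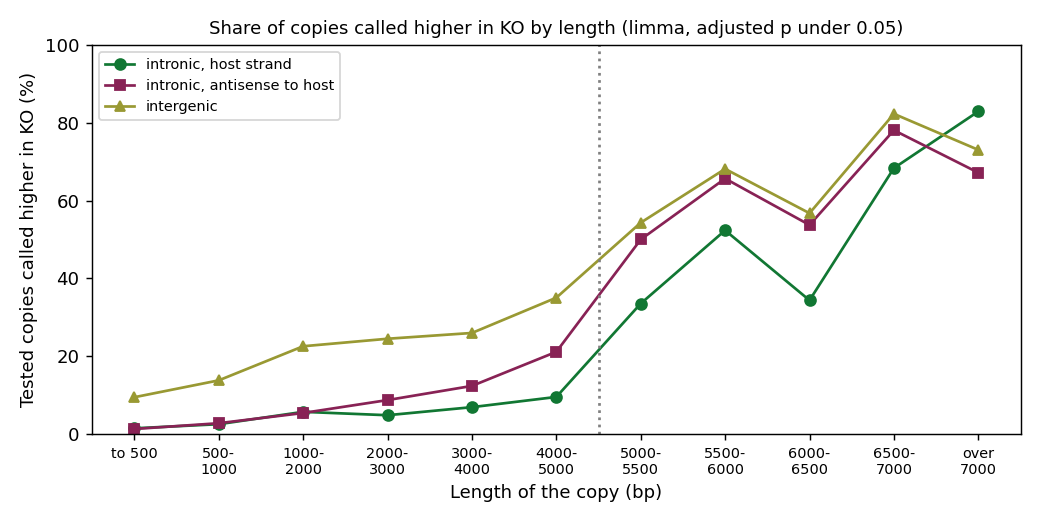
Share of tested copies called higher in KO (limma, adjusted p under 0.05) by copy length for intronic copies on the host strand, intronic copies antisense to the host and intergenic copies. The dotted line marks the limit of 5000 bp. On the host strand the share is 9.60% just below the limit and 33.6% just above it, and it is lower than for antisense and intergenic copies in the classes from 5000 to 7000 bp.

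Few of the short copies in introns of the same host genes were called. They lie within the same host genes, though not necessarily in the same introns as the long copies. Of 8270 host-strand copies of up to 1000 bp in these hosts, 844 passed the filter on low values. Among these, 22 (2.61%) were called higher and 8 lower. Their median log2 fold change was -0.24, which turned to 0.06 when the copies were scaled by the gene table's size factors. Their reads per 100 gene reads came to 0.116, 0.0952 and 0.214 in het and 0.109, 0.244 and 0.128 in KO, with means of 0.142 ± 0.0635 and 0.160 ± 0.0731 (SD, n = 3 each, exact permutation p = 0.6). In hosts that hold a called member, 14 of 310 short copies (4.52%) were higher and 3 lower. The log2 ratio of reads on the long members to reads on the short copies was -1.06, -0.999 and -0.57 in het and 0.87, 0.50 and 0.51 in KO. Both groups were tight and far apart, at -0.88 ± 0.27 and 0.63 ± 0.21 (SD, n = 3 each). The difference of 1.51 had the smallest p that the exact permutation test can give, 0.1, and ran from 1.38 to 1.66 with each library left out in turn.

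Among tested long intronic copies that run against their host, a larger share was called. Of 1975 listed, 1296 were tested, and 755 (58.3%) were higher and 4 lower, with a median log2 fold change of 2.42. The share depends on the filter. Over all copies, tested or not, 755 of 1975 antisense and 372 of 1131 host-strand copies were called, a smaller gap. Their reads per 100 gene reads came to 0.0665, 0.0585 and 0.119 in het and 0.345, 0.508 and 0.289 in KO, a mean 4.69-fold higher in KO. The ratio to them tests the host-strand copies within each library. The log2 ratio of host-strand to antisense reads was -0.26, -0.30 and 0.29 in het and -0.79, -0.56 and -0.66 in KO, so that all KO libraries lay under the het range. The means were -0.09 ± 0.33 and -0.67 ± 0.12 (SD, n = 3 each), a difference of -0.58 (exact permutation p = 0.1, the smallest possible). Without het3 the difference was -0.39. Median KO levels of the tested copies were alike, at 49.0 normalized counts on the host strand and 49.1 antisense, and their median het levels were 16.6 and 11.7. How strand entered the counting is not given in the sources used here, so reads of either strand may be in both sets.

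Among tested members, the level of the host gene went with the level of the copy in het. Members were placed by the mean normalized count of the host over the 6 libraries. Where the host was under 10 or not listed, 73 of 126 tested members (57.9%) rose. The share was 102 of 207 (49.3%) for hosts of 10 to 100 and 163 of 390 (41.8%) for 100 to 1000. For hosts of 1000 or more it was 34 of 139 (24.5%). Over all members of these classes, tested or not, the called counts were 73 of 219, 102 of 295, 163 of 464 and 34 of 153. By these counts the share did not fall over the first 3 classes and was lower in the last. Over these classes the median level in het was 1.55, 2.40, 3.04 and 6.32 normalized counts per kb, and in KO 8.49, 8.28, 8.20 and 10.3. Among the copies that passed, the het level thus rose from class to class, whereas the KO level was similar in the first 3. A copy near silent in het passes the filter only where its KO level is high, so these shares and levels depend on the filter. For antisense copies the median het level was 1.61, 1.79, 1.98 and 2.76 per kb and the called share 60.4%, 59.3%, 62.2% and 44.2%. The differences between classes were not tested, and they are a description.

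**Figure D4:**
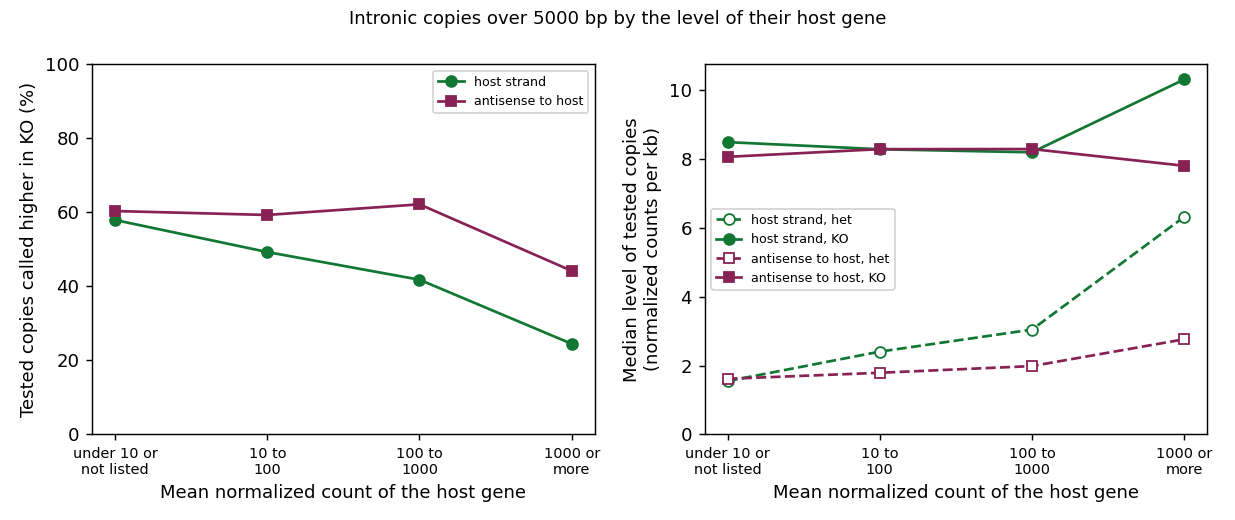
Intronic copies over 5000 bp by the mean normalized count of their host gene. The left panel gives the share of tested copies called higher in KO and the right panel the median level in normalized counts per kb, for host-strand and antisense copies. On the host strand the called share goes from 57.9% to 24.5% while the het level goes from 1.55 to 6.32 per kb. Over all members, tested or not, the called counts are 73 of 219, 102 of 295, 163 of 464 and 34 of 153, a share that is lower only in the last class.

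The called share was also counted by place. It was 39.2%, 42.6% and 46.9% in the first, the middle and the last part of the host when its length is cut in 3. By distance to the nearest exon, in 4 classes of like size from the nearest, it was 40.2%, 38.2%, 45.8% and 48.2%. On the plus strand it was 44.1% and on the minus strand 42.2%. In lincRNA hosts 55 of 110 rose and in protein-coding hosts 273 of 664 (41.1%). On the X chromosome 27 of 50 rose (54%), and on the autosomes 345 of 812 (42.5%). All shares given here by place are of tested members and depend on the filter. Over all members, tested or not, the last 4 were 55 of 173, 273 of 831, 27 of 76 and 345 of 1055, in the same order. Counted so, the share was not higher in lincRNA hosts than in protein-coding hosts, and it stayed higher on the X chromosome than on the autosomes. None of these differences was tested.

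Few of the host genes passed the test. Of 838 hosts, 758 were listed in the gene table and 648 had a mean of at least 10. In KO, 11 of the 648 (1.70%) were higher, against 0.431% of all genes tested, and 0 were lower, against 0.0423%. By an unadjusted p under 0.05, 15 hosts were lower. With edgeR 12 were higher and 0 lower, against 0.465% and 0.0308% of all genes, and with DESeq2 44 were higher and 2 lower, against 1.54% and 0.25%. The median log2 fold change of the hosts was 0.17, and that of all genes tested -0.02. The 243 tested hosts with a called copy had a median of 0.18 with 6 called, and the 405 without one had a median of 0.17 with 5 called. The count of 11 changed when a library was left out, in fits with fewer samples. It was 0 without KO1, 1 without KO3, 6 without KO2 or het2 and 7 without het1.

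Of the 11 called hosts, 6 held a member that rose as well. Cyp4a12b, a cytochrome P450 gene of fatty acid hydroxylation, went from 6.67, 3.86 and 0 normalized counts in het to 223, 315 and 130 in KO (log2 fold change 5.97, limma adjusted p = 0.0109). The copy in it also rose, from 4.22, 5.61 and 19.2 to 43.9, 156 and 40.2 (log2 fold change 2.90, limma adjusted p = 0.0144). In Ifi203-ps, a pseudogene of the interferon-inducible Ifi200 family, the host went from 90.6, 95.6 and 58.5 to 722, 713 and 340, and the copy from 5.27, 4.49 and 1.92 to 51.5, 47.2 and 65.0. Fam19a1, which encodes a secreted chemokine-like protein, rose by 3.97 on the log2 scale, and its copy by 2.74. Copy and host thus both rose in these 3 genes, in Gm20750 and in Gbp9 and Pkhd1, which are named after their values were seen. Gbp9, an interferon-inducible GTPase gene, rose by 2.77 on the log2 scale, and the copy that lies within it and within Gbp8 by 2.68 (limma adjusted p = 0.0270). Gbp8 itself did not pass the test (log2 fold change 1.95, limma adjusted p = 0.117). Pkhd1, the fibrocystin gene, went from 159, 116 and 82.9 normalized counts in het to 398, 359 and 565 in KO, and 3 of its 4 copies rose. Cyp4a12b, Ifi203-ps and Gbp9 have close relatives in the genome, so how reads were divided among such genes is uncertain.

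In the other 5 called hosts the copy was not tested or not called. Ranbp3l, a Ran-binding protein gene, went from 79.1, 38.6 and 41.9 normalized counts in het to 346, 302 and 463 in KO, while its copy had 11.6, 8.97 and 17.3 in het and 5.72, 0 and 8.55 in KO, under the filter. Gm15169, a gene annotated as antisense, and A230004M16Rik rose by 4.41 and 3.80 on the log2 scale. Their copies had log2 fold changes of 2.81 and 1.89 with limma adjusted p-values of 0.0581 and 0.125, and in both every KO library was above the het libraries. The copy in AA792892, a host that rose by 5.65, was not tested. Grid1, a delta glutamate receptor gene named after its values were seen, went from 414, 359 and 360 to 886, 1040.5 and 907, and the copy within it had a log2 fold change of -0.10 (limma adjusted p = 0.970).

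One called host starts inside a TE copy. The annotated start of A230004M16Rik, a noncoding gene on the plus strand, lies at base 146 from the 5′ end of a 6562-bp copy on the minus strand (chr11:41703926-41710487), and the printed window of this start shows the tandem repeat there. Without strand in the counting, reads of the copy and of the exon within it cannot be told apart. This copy, which overlaps that exon and is therefore no member, had 19.0, 11.2 and 13.4 normalized counts in het and 339, 367 and 241 in KO. Its log2 fold change was 4.36 (SE 0.40, limma adjusted p = 0.000398). The host gene had 4.77, 3.86 and 12.7 in het and 109, 78.5 and 117 in KO.

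Each copy was then tested against its host in the same libraries, as log2(copy + 1) minus log2(host + 1) with both on the gene table's size factors. Of 753 members with a tested host, 144 (19.1%) were higher relative to the host in KO, against 2.9% of all intronic copies so tested, and 1 was lower, against 0.111%. The median of the relative change was 1.56 on the log2 scale, against 0.08 over all intronic copies. Of the 299 members called in the first test that entered this fit, 140 rose relative to the host. Those 299 were picked by the same copy values in the same libraries, so this share is no separate support. Antisense copies rose in 359 of 1165 (30.8%), and short host-strand copies in the same hosts in 4 of 897 (0.446%). The count for members was 33, 44 and 69 without KO1, KO2 and KO3, and 75, 69 and 253 without het1, het2 and het3.

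The largest relative rises included hosts that were lower in KO without passing the test. The Egflam copy led, with a relative change of 5.18 (SE 0.63, limma adjusted p = 0.00287), while Egflam itself had 395, 324 and 468 normalized counts in het and 219, 499 and 300 in KO. In Gm40264 the copy (chr5:9049289-9054929) had 0, 6.73 and 3.83 in het and 20.0, 38.7 and 41.9 in KO, and the host 8.58, 22.2 and 32.2 in het and 5.94, 12.4 and 1.96 in KO. Its relative change was 5.16 (limma adjusted p = 0.00886). In 9530036O11Rik the copy (chr5:28485020-28490737) had 16.9, 8.97 and 56.5 in het and 134, 136 and 104 in KO, and the host 32.4, 49.3 and 48.8 in het and 12.9, 13.4 and 6.86 in KO. Every KO value was above the het values for the copy and under them for the host, with a relative change of 4.75 (limma adjusted p = 0.00396). The copy within the lincRNA gene Gm29536 (chr1:78949109-78955451) had 0, 3.37 and 5.75 in het and 64.9, 68.1 and 48.8 in KO, a relative change of 4.65 (limma adjusted p = 0.0102). Without KO2 the relative calls of Gm40264 and Gm29536 were lost (limma adjusted p = 0.0647 and 0.1004), as was that of Gm40264 without KO3 (0.0926) and that of Gm29536 without KO1 (0.0928). The 1 member that fell relative to its host, named after its values were seen, lies in Gm48619: the host had 0 in every het library and 28.7, 132 and 26.5 in KO, and the copy 16.9, 20.2 and 32.6 in het and 189, 417 and 89.8 in KO.

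**Figure D5:**
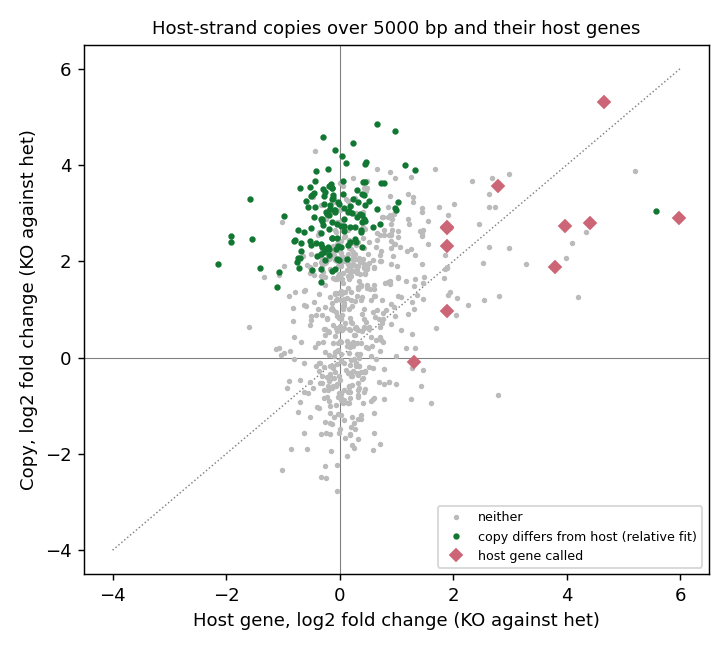
Log2 fold change of each of 736 tested host-strand copies against that of its host gene, KO against het. Green points are copies that differ from the host in the relative test, and the dotted line marks equal change. Diamonds are copies whose host in that test was called. The copy within Gbp9 was set against Gbp8, which was not called, and is no diamond. Most green points lie above the dotted line near a host change of 0, and the diamonds lie to the right.

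Many hosts held both called and uncalled copies. Of 137 hosts with at least 2 tested members, all members rose in 30, none in 36 and some in 71. Gpr158, which encodes an orphan receptor of neurons, holds 7 members, of which 3 were tested and 2 rose. Nkain2, the gene of a protein that interacts with the sodium pump, also holds 7, of which 5 were tested and 1 rose. The called Nkain2 copy (chr10:32039729-32045988) had 4.22, 6.73 and 27.8 normalized counts in het and 55.3, 69.7 and 65.0 in KO. Another Nkain2 copy (chr10:32718570-32723861) had 14.8, 29.2 and 241 in het and 1.91, 136 and 10.3 in KO, high in 1 library of each group. Gm29536 and Malrd1 hold 6 members each. Of those in Gm29536 4 were tested and 3 rose, and of those in Malrd1 3 were tested and none was called. The 3 Malrd1 copies had log2 fold changes of 2.31, 3.39 and 3.12 (limma adjusted p = 0.104, 0.108 and 0.135), with every KO library above the het libraries. Malrd1 itself did not pass either, with 88.7, 69.5 and 27.3 in het and 396, 187 and 561 in KO (log2 fold change 2.62, limma adjusted p = 0.0742).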

How the data were processed

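RNA-seq libraries of sorted P0 gonocytes were compared, 3 Morc1 (+/-) and 3 Morc1 (-/-). Per the labels' protocols, cDNA was made with a low-input kit (SMART-seq v4) and libraries with a TruSeq kit. The submitters' processing notes list bcl2fastq 2.20, cutadapt 1.18, HISAT2 2.1.0, featureCounts 1.5.2, DESeq2 1.26.0 and the build mm10/GRCm38. The repeat annotation, strand handling and treatment of multiply mapped reads are not given in the sources used here. Near-identical copies can share reads, so the level of a single copy is uncertain.

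The deposited values of both tables are a signal: reads divided by a size factor, called normalized counts. In each column 100% of values were multiples of a single step (tolerance 0.001), which matched the reciprocal of median-of-ratios factors, taken from TE copies for the TE table and from genes for the gene table. For KO1 of the gene table the step is too near to 1 for an automatic check. Recovered reads served the sums per 100 gene reads and the edgeR and DESeq2 alternatives. Every listed copy and gene had at least 10 reads over the 6 libraries, so rarer ones are not in the tables. The TE table's columns carry no stage, which was taken from the table's name.

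Genes were matched to GENCODE M21 (35560 of 35666) and overlaps made with bedtools 2.31.1. Tests were limma 3.58.1 (trended eBayes, two-sided, log2 with a pseudocount of 1, which understates changes of low copies, mean of at least 10) in R 4.3.3, checked on simulated data, and exact two-sided permutation tests. The host of a copy within several genes was the one with the highest mean. Alternatives were other pseudocounts, filters, scalings, a length limit of 6000 bp, a fit without trend, a replicate block, edgeR 4.0.16, DESeq2 1.42.0 and leaving out each library. The edgeR alternatives with gene size factors and with the block were chosen after seeing the data.

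The members and lists were chosen with earlier results of these data known. Named were the 8 members with the largest rise and up to 4 with the largest fall past the threshold, the 5 with the highest mean, the 4 with the largest relative rise, 3 on each side of the length limit, up to 8 called hosts and the 3 hosts with the most members, where a tie for the last place added 1. Of the marker lists, those for peritubular myoid cells (summed level 1208 to 1220 in het and 1222 to 1766 in KO), endothelial cells (1223 to 1594 and 963 to 1753), macrophages (198 to 258 and 258 to 299) and red blood cells (366 to 1015 and 362 to 1321) held no called gene.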

Additional observations from a re-analysis of the deposited data

How the results depend on the processing

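The rise of the members kept its direction and remained past the threshold for most named copies, and counts depended on which libraries entered. Leaving out each library in turn gave 188 to 459 members higher and 0 to 5 lower, 0 to 11 hosts higher and 0 lower, and 33 to 253 members higher and 0 to 2 lower relative to the host. These fits have fewer samples. A mean of at least 50 left 167 members called, 110 higher and 0 lower relative to the host, and a length over 6000 bp left 195; both test fewer copies. With no filter, 2 members were lower, 17 hosts were higher, and 220 members were higher and 7 lower relative to the host. Without the trend, 1 member was lower, and 35 were higher and 0 lower relative to the host. A pseudocount of 0.1 gave 5 hosts higher and 2 members lower relative to the host. With each table on its own scaling, 3 members were lower relative to the host. DESeq2 called 4 members lower, 44 hosts higher and 2 hosts lower. The causes of these moves were not tested. The gene table's size factors moved the median of all copies tested from 0.03 to 0.34 on the log2 scale and that of the members from 1.83 to 2.15, with 426 called, all 372 among them.

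Same-numbered libraries did not pair: correlations of their deviations from the group means were 0.14, -0.16 and -0.04 in the gene table and 0.15, -0.24 and -0.12 in the TE table. With a replicate block, 327 members were called (204 with edgeR), 7 hosts were higher, and 82 members were higher and 0 lower relative to the host. The block left the differences of the single values at 0.160, -0.58 and 1.51. Over the alternatives of the named copies called higher, 225 results stayed past the threshold and 8 did not. For the named rises relative to the host 47 stayed and 6 did not, those of Gm40264 and Gm29536, each lost with a pseudocount of 0.1 and without 2 KO libraries in turn. For the named called hosts 97 stayed and 57 did not, and no result reversed. Every host call was lost without KO1. The 269 members under the filter did not enter the tests above. The fit with no filter called 329 of all 1131 members higher, of which 307 were among the 372.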
